A study of Mus musculus with 12 samples.

Results

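The genes described here are 31 genes of the megakaryocyte and platelet lineage, followed in mouse spleen RNA. They were listed by name, with earlier results of these data known, and were found through their Ensembl identifiers, so their shares set beside those of all genes below are descriptions. All 31 were present among the 53715 gene identifiers of the count table, and all 31 passed the filter on low counts, with 12 to 7165 counts per gene and library. In all, 18542 genes passed this filter and were tested.

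RNA was sequenced from whole spleens of mice of the strain BXSB.Cg-Cd8atm1Mak Il15tm1Imx Yaa (Yaa DKO). All 3 groups carry the targeted Cd8a and Il15 alleles and the autoimmunity-accelerating Yaa locus, so no group is a wild type control. Untreated mice were sampled at 6 weeks, which the submitters call pre-symptomatic (4 libraries, replicates 1 to 4), and at 10 weeks, which they call symptomatic (4 libraries, replicates 5 to 8). The treated mice, of the same strain and sampled at 10 weeks, drank water with 6 g/L of the glucose analogue 2-deoxyglucose (2DG), which inhibits glycolysis (4 libraries, replicates 9 to 12). The age at which 2DG was started, and whether each library came from a separate mouse, are not given in the sources used here. The p-values therefore set each difference against a spread between libraries that was pooled over the 3 groups and may be partly technical.

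Megakaryocytes are large polyploid cells that form platelets by extending long processes into the blood. In mice they live in the red pulp of the spleen as well as in the bone marrow, and the spleen also holds a pool of circulating platelets. Platelets have no nucleus and carry RNA and granules inherited from the megakaryocyte: alpha granules with adhesive proteins and chemokines, and dense granules with serotonin and nucleotides. In bulk tissue, fewer cells of a type and less RNA per cell cannot be told apart.

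The libraries held 15596040 to 26079979 counts. B and T cell genes of the spleen were present throughout, with the B cell gene Cd79a at 324 to 541 CPM (counts scaled by TMM-adjusted library size). Untreated 10-week replicate 8 stood apart from its group over all genes: its median Pearson correlation of log2 CPM across 18542 genes was 0.9905 with the 6-week libraries and 0.98 with its own group. Untreated 10-week replicate 6 was also unlike its group, with a median correlation of 0.9739. The 2 genes called with 2DG are therefore also given without these libraries.

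Per length of exon, the platelet chemokine gene Ppbp was the most abundant of the 31 genes at 6 weeks, at 236.8 ± 54.2 CPM per kb (SD, n = 4). Pf4, which encodes platelet factor 4 and lies beside Ppbp on chromosome 5 with a gap of 2371 bases, followed at 74.6 ± 16.6 CPM per kb. The next levels per length belonged to the transcription factor gene Fli1 (49.5 ± 4.60 CPM per kb), the megakaryocyte beta-tubulin gene Tubb1 (39.1 ± 7.27), the thrombospondin gene Thbs1 (36.4 ± 9.08) and the integrin gene Itgb3 (35.3 ± 6.14). The last 3 of these lay within 1 SD of each other and their order is not resolved. At the low end were the P-selectin gene Selp (1.79 ± 0.456 CPM per kb), the receptor gene Treml1 (1.497 ± 0.402) and the cation channel gene Trpc6 (1.29 ± 0.160), again within their spread of each other. The levels thus fell along a continuous scale with Ppbp alone far above its neighbour.

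**Figure D1:**
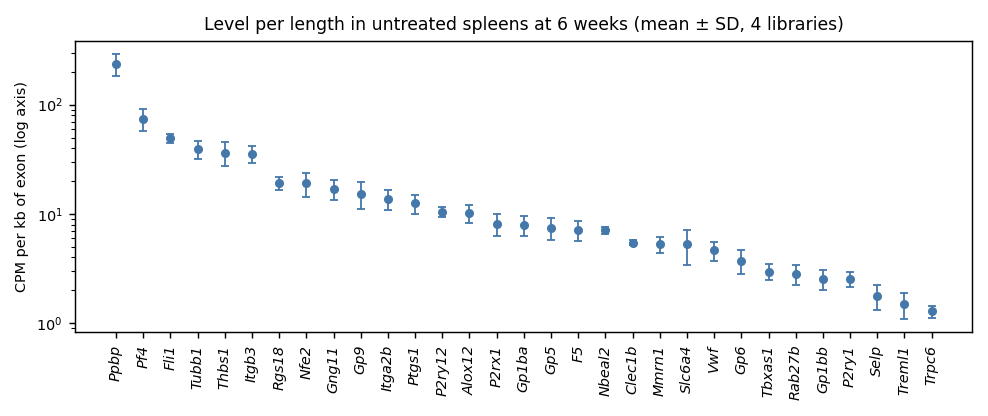
Level of each of the 31 genes in untreated spleens at 6 weeks, in CPM per kb of exon on a log axis, with points for the mean and bars for the SD of 4 libraries. Ppbp (236.8) and Pf4 (74.6) lead, and most neighbours further down overlap within their SD.

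Promoter sequences are shown for 5 genes, because megakaryocyte genes are known targets of GATA and ETS family factors and of NF-E2. The genes are the pair of neighbouring chemokine genes with the highest level per length, the platelet glycoprotein genes with the most GATA-type letters, and the serotonin transporter gene, which had the largest change with 2DG. Each sequence is the 250 bases before the gene start (RefSeq, build GRCm38.p6), given 5′ to 3′ on the gene's own strand. Capitals mark, on either strand, GATA-type letters, which are AGATAA and its listed variants AGATAG and then also TGATAA and lastly TGATAG, and ETS-type letters, which are AGGAAG and its variant CGGAAG.
Ppbp, chr5:90768268-90768517, plus strand: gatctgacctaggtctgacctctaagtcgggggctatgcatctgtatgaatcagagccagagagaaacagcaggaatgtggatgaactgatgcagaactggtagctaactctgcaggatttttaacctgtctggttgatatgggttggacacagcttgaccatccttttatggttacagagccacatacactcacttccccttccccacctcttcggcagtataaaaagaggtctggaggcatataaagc
Pf4, chr5:90772185-90772434, plus strand: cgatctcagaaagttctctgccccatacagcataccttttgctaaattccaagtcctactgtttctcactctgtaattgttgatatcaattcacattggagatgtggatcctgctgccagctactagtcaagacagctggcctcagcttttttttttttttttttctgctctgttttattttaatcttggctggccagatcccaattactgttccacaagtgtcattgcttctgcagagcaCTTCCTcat
Gp1ba, chr11:70638872-70639121, plus strand: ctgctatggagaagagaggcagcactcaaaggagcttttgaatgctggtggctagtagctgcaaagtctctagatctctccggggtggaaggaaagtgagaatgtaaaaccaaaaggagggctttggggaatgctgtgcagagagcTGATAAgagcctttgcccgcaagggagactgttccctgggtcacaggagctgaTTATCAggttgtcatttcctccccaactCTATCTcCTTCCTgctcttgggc
Gp5, chr16:30310782-30311031, minus strand: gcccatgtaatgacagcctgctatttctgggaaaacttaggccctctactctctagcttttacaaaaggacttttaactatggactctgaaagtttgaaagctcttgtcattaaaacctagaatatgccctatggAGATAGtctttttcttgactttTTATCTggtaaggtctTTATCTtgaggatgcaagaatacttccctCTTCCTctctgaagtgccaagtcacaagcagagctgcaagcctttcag
Slc6a4, chr11:76998347-76998596, plus strand: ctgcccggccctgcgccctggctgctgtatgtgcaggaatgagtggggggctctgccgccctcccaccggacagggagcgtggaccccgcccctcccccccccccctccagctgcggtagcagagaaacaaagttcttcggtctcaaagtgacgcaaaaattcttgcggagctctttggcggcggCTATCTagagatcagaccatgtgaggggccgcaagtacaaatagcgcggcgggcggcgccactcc

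Gp1ba and Gp5 each held 3 GATA-type matches and 1 ETS-type match in this window. Slc6a4 held 1 GATA-type match and Pf4 held 1 ETS-type match. Ppbp held neither, but had 1 match to TGANTCA, the letters shared by NF-E2 and AP-1 sites, which is not in capitals. A promoter entry was matched for 23 of the 31 genes, all but Fli1, Gng11, Itgb3, Nfe2, Rab27b, Rgs18, Thbs1 and Vwf. Among the 23, GATA-type letters occurred in 8 (34.8%), against 27.1% of all 27025 promoters of the same length. ETS-type letters occurred in 13 (56.5%, against 39%), both kinds in 3 (13%, against 9.38%), and TGANTCA in 4 (17.4%, against 6.87%). Overlapping matches of 1 motif were counted once, and matches of different motifs could share bases. These are descriptions of letters, not of bound sites.

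With age, from 6 to 10 weeks in untreated mice, most of the 31 genes had lower mean levels, while the libraries of each age spread widely. None of the 31 genes passed the edgeR quasi-likelihood test at an adjusted p of 0.05, where 0.00539% of all tested genes passed in either direction and 0.00539% were lower. Fitted log2 fold changes were negative for 26 of the 31 genes and positive for 5, with a median of -0.65 (range -1.43 to 0.20), against a median of 0.01 over all tested genes. At an unadjusted p under 0.05 there were 20 of 31 genes (64.5%), where 17.1% of all tested genes met this level. For 8 genes (25.8%) every untreated 10-week library lay below every 6-week library, which held for 3.33% of all tested genes: Ppbp, Itgb3, Mmrn1, Rab27b, Slc6a4, Trpc6, Alox12 and Rgs18. The opposite order held for 0 of the 31 genes and 3.64% of all tested genes. The 31 genes tended to be high or low in the same libraries, as described below. Counts of genes in each comparison are therefore not counts of independent results. DESeq2, run as an alternative, called 10 of the 31 genes lower at 10 weeks (Alox12, Gp6, Itgb3, Mmrn1, Ppbp, Rab27b, Rgs18, Slc6a4, Tubb1 and Vwf). It called 0.579% of all 36604 genes with any count lower. This base, used for every DESeq2 share here, includes genes below the count filter, which all 31 genes passed. The DESeq2 shares are therefore not on the same base as the edgeR shares, which are over 18542 genes. By voom 0 of the 31 genes were called, with 0.00539% of all tested genes.

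The second comparison asked how 2DG-treated spleens differed from untreated spleens at 10 weeks. By the same edgeR test 2 of the 31 genes rose, the von Willebrand factor gene Vwf and the serotonin transporter gene Slc6a4, and 0 fell. This is 6.45% of the genes, where 2.16% of all tested genes rose, 5.26% fell and 7.42% changed in either direction. Fitted log2 fold changes were positive for 28 genes and negative for 3, with a median of 0.52 (range -0.18 to 1.19), against 0.01 over all tested genes. At an unadjusted p under 0.05 there were 18 genes (58.1%, against 24.5% of all tested genes). The groups did not overlap for 2 genes, P2rx1 and Slc6a4, both higher with 2DG (6.45%, against 4.48% of all tested genes), and for 0 were all treated libraries lower (7.91%). The number called varied with the settings. Both calls were lost, and 0 of the 31 genes called, by voom (7.05% of all tested genes called), without a filter (3.13%) and with the compared groups alone (3.21%). DESeq2 called 8 of the 31 genes higher (Gp1bb, Itga2b, Mmrn1, Nfe2, P2rx1, Slc6a4, Tubb1 and Vwf), where it called 2.36% of all genes with any count higher. Leaving out treated replicate 12 gave 7 genes (Gp1bb, Gp9, Itga2b, Mmrn1, Slc6a4, Tubb1 and Vwf, with 2.54% of all tested genes higher), and leaving out untreated replicate 7 gave 5 (Mmrn1, Nfe2, Slc6a4, Tubb1 and Vwf, with 3.7%). Leaving out untreated replicate 5 or 6, treated replicate 9, 10 or 11, or 6-week replicate 2 or 4 gave 0, in fits that called 2.74% to 9.71% of all tested genes. Without both untreated replicates 6 and 8, a setting chosen after seeing the data, 16.7% of all tested genes were called and 1 of the 31, Nbeal2, so that both calls were lost. The same setting called 12% of all tested genes and 0 of the 31 with age. This comparison and the first share the untreated 10-week libraries, so a low or high library in that group moves both in opposite directions.

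The third comparison set 2DG-treated spleens at 10 weeks against untreated spleens at 6 weeks, so that neither side held an untreated 10-week library. Those libraries still entered the fit through the filter, the scaling and the pooled estimate of the spread. By edgeR 0 of the 31 genes passed, where 0.129% of all tested genes did (0.0378% higher and 0.0917% lower), and 2 had an unadjusted p under 0.05 (6.45%, against 16.9%). DESeq2 and voom each called 2, Nfe2 higher and Fli1 lower, where DESeq2 called 1.46% of all genes with any count higher and 0.986% lower, and voom called 8.87% of all tested genes in either direction. Without untreated replicates 6 and 8, which are in neither group, Fli1 was called, with 3.96% of all tested genes. Fold changes were positive for 13 genes and negative for 18, with a median log2 value of -0.10 (range -0.50 to 1.07), and the unadjusted 95% interval included 0 for 29 of 31. Age and treatment both differ in this comparison.

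**Figure D2:**
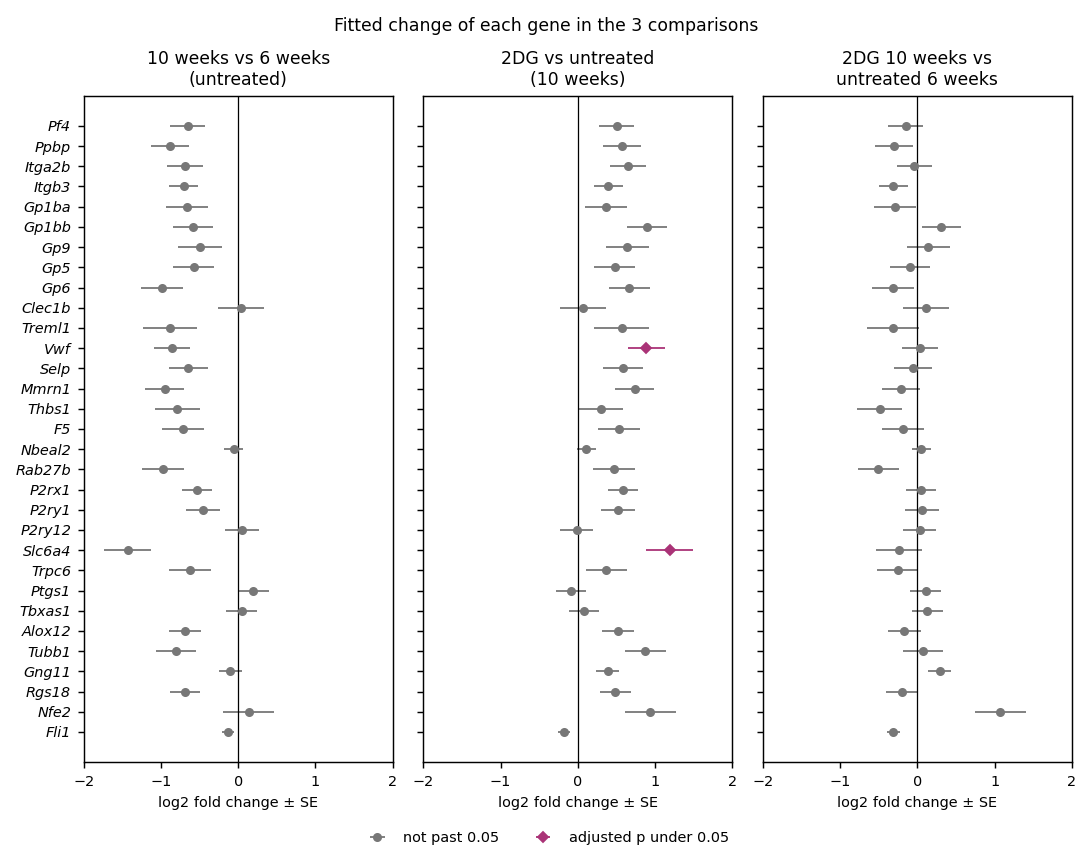
Fitted log2 fold change (point) and its SE (bar) of the 31 genes in the 3 comparisons, with diamonds for an adjusted p under 0.05. Most points lie below 0 in the first comparison (26 of 31) and above 0 in the second (28 of 31), with Vwf and Slc6a4 past the threshold, and they lie around 0 in the third.

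The platelet chemokine genes Ppbp and Pf4 encode alpha granule proteins that draw in and activate leukocytes. Ppbp (ENSMUSG00000029372.7, chr5:90768518-90770063) had 293, 317, 190.3 and 226 CPM in the 6-week libraries, 109.6, 124, 188 and 135 in the untreated 10-week libraries, and 166, 284, 237 and 142 with 2DG. The untreated 10-week values all lay below the 6-week values, the nearest pair being 188 and 190.3, and the 2DG values spanned both groups. The log2 fold change was -0.88 (SE 0.25, edgeR adjusted p = 0.137) with age and 0.57 (SE 0.25, adjusted p = 0.185) with 2DG. Pf4 had means of 53.8 ± 12.0, 34.2 ± 5.11 and 48.5 ± 15.5 CPM in the same order of groups (SD, n = 4 each), with adjusted p of 0.187 and 0.200.

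The integrin subunits Itga2b and Itgb3 form the platelet fibrinogen receptor, which links platelets to each other. Itgb3 (ENSMUSG00000020689.4, chr11:104608000-104670476) had 229, 240.3, 158 and 206 CPM at 6 weeks, 99.2, 138, 145 and 128 in untreated mice at 10 weeks, and 135, 213, 194 and 129.8 with 2DG. The untreated 10-week libraries were all below the 6-week libraries, while the treated libraries overlapped both. The log2 fold change was -0.71 (SE 0.19, edgeR adjusted p = 0.118) with age and 0.40 (SE 0.19, adjusted p = 0.214) with 2DG. Itga2b had 75.1 ± 15.6, 46.4 ± 10.4 and 73.1 ± 20.8 CPM.

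The GPIb-IX-V complex, encoded by Gp1ba, Gp1bb, Gp9 and Gp5, binds von Willebrand factor and slows platelets on a damaged vessel wall. Gp1ba (ENSMUSG00000050675.7, chr11:70639122-70642036) had 21.3, 27.4, 16.3 and 21.1 CPM at 6 weeks, 10.4, 15.1, 17.2 and 11.8 in untreated mice at 10 weeks and 12.3, 23.7, 23.3 and 10.8 with 2DG. In the treated group replicates 10 and 11 were near the 6-week libraries, and replicates 9 and 12 were near the untreated 10-week libraries. Its log2 fold change was -0.66 (SE 0.27, edgeR adjusted p = 0.248) with age and 0.36 (SE 0.27, adjusted p = 0.456) with 2DG. The other members of the complex had fitted values from -0.58 to -0.50 with age, and the range over all 4 with 2DG was 0.36 to 0.89. The highest of these belonged to Gp1bb, whose groups with and without 2DG overlapped in 1 treated library (3.70 CPM in replicate 12, against 2.92 to 4.18 CPM untreated) and whose adjusted p was 0.0552. Gp1bb shares 91.1% of its exon bases with Sept5 on the same strand, so its counts are uncertain.

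**Figure D3:**
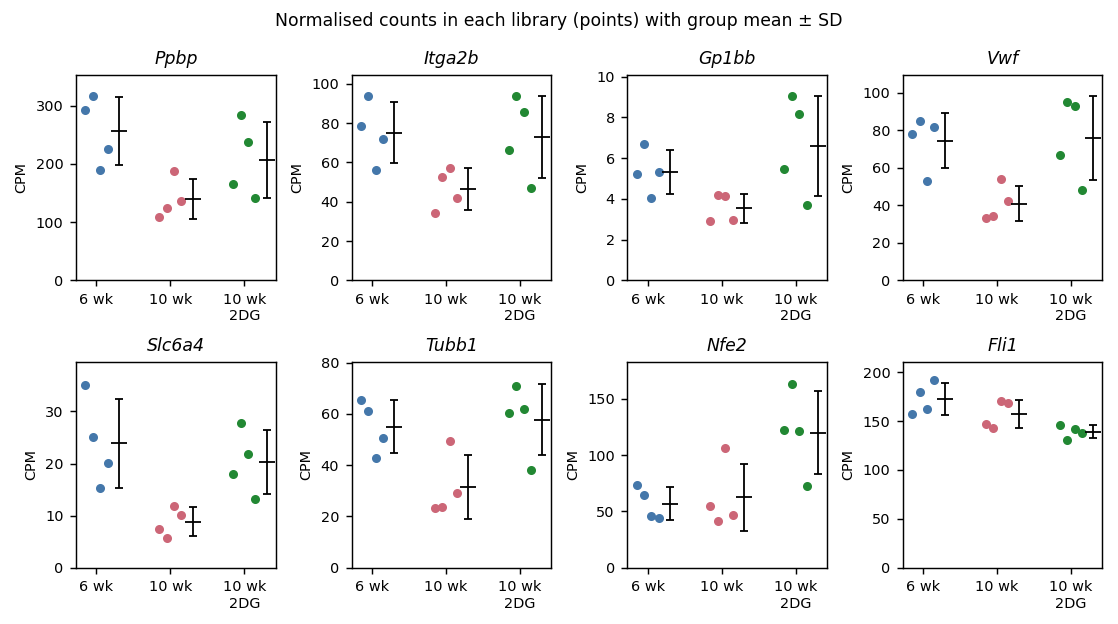
CPM of 8 genes in each library (points, untreated 6 weeks in blue, untreated 10 weeks in red, 2DG at 10 weeks in green), with the group mean and SD beside them. Slc6a4 shows no overlap between the untreated and the treated 10-week libraries, Vwf overlaps in 1 treated library, and Nfe2 and Fli1 show other orders of the groups.

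Among the other surface receptors, Gp6 encodes the platelet collagen receptor, Clec1b the podoplanin receptor, and Treml1 a receptor stored in alpha granules. Clec1b (ENSMUSG00000030159.15, chr6:129397297-129409335), the most abundant of them by CPM, had 28.2, 29.8, 26.3 and 27.4 CPM at 6 weeks. It had 15, 49.5, 28.5 and 21.9 CPM in untreated mice at 10 weeks and 31.9, 35.3, 31.9 and 21.4 CPM with 2DG. Replicate 6 was the highest and replicate 5 the lowest of all 12 libraries, both in the untreated 10-week group. Clec1b shares 3.61% of its exon bases with Clec9a on the same strand, which was given 8878 counts against 7669 for Clec1b. Its log2 fold change was 0.04 (SE 0.30, edgeR adjusted p = 0.961) with age and 0.07 (SE 0.30, adjusted p = 0.920) with 2DG, and the age value became -0.35 without replicate 6. Gp6 went from 22.1 ± 5.47 to 11.1 ± 3.44 CPM with age, a log2 fold change of -0.99 (adjusted p = 0.128), and stood at 17.7 ± 5.48 CPM with 2DG. Treml1 was near 2 CPM or below on average in every group (2.1 ± 0.563, 1.12 ± 0.445 and 1.68 ± 0.728).

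The adhesive proteins of the alpha granule are represented by Vwf, Selp, Mmrn1, Thbs1 and F5. Vwf encodes von Willebrand factor, which bridges platelets and collagen and is also made by endothelial cells. Vwf (ENSMUSG00000001930.17, chr6:125546774-125686679) had 78.1, 85.1, 52.9 and 81.6 CPM at 6 weeks, 33.1, 34.6, 53.8 and 42.5 in untreated mice at 10 weeks, and 66.8, 95.2, 93.1 and 48.3 with 2DG. Only treated replicate 12 lay inside the untreated 10-week range. The mean rose from 41.0 ± 9.49 to 75.9 ± 22.5 CPM with 2DG (SD, n = 4 each), a log2 fold change of 0.89 (SE 0.24, edgeR adjusted p = 0.0454), and the 6-week mean was 74.4 ± 14.6 CPM. Across 21 alternative settings the adjusted p ran from 0.00277 to 0.163 and the call was lost in 13, among them each fit that left out treated replicate 9, 10 or 11. It was also lost without untreated replicate 5 (adjusted p = 0.129), 6 (0.0931) or 8 (0.0621, in a fit that called 11.8% of all tested genes), and without both 6 and 8 (0.162). The 12 endothelial markers summed to 431 to 595 CPM at 6 weeks, 507 to 697 in untreated mice at 10 weeks and 567 to 692 with 2DG. None of these 12 markers passed the test in any comparison, with 9 positive and 3 negative values for 2DG (median log2 fold change 0.11).

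Thbs1 (ENSMUSG00000040152.8, chr2:118111876-118127133), which encodes the adhesive glycoprotein thrombospondin, was the most abundant of these 5 genes by CPM. It had 276, 248, 149 and 211 CPM at 6 weeks, 70.2, 160.4, 154 and 127 in untreated mice at 10 weeks, and 119, 205, 187 and 118 with 2DG. The groups overlapped in every comparison. Its log2 fold change was -0.79 (SE 0.29, edgeR adjusted p = 0.206) with age and 0.30 (SE 0.29, adjusted p = 0.582) with 2DG. Mmrn1, which encodes a carrier of coagulation factor V, had 31.1 ± 5.10, 16.0 ± 4.93 and 26.8 ± 8.31 CPM. F5, the gene of factor V itself, had 53.4 ± 11.2, 32.4 ± 10.5 and 46.8 ± 12.9 CPM, and Selp, the gene of an adhesion receptor for leukocytes, had 7.90 ± 2.01, 5.05 ± 0.786 and 7.6 ± 2.70 CPM.

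Of the genes for granule formation and release, Nbeal2 is needed to keep cargo in alpha granules and Rab27b for dense granules. Nbeal2 (ENSMUSG00000056724.14, chr9:110624789-110654161) had 63.5, 69.2, 64.8 and 74.1 CPM at 6 weeks, 53.1, 85.6, 60.5 and 61.7 in untreated mice at 10 weeks, and 65.8, 74.5, 74.2 and 67.0 with 2DG. Replicate 6 was the highest of all libraries, and the group means lay between 65.2 ± 14.1 and 70.4 ± 4.59 CPM. The log2 fold changes were -0.06 (SE 0.12, edgeR adjusted p = 0.846) with age and 0.11 (SE 0.12, adjusted p = 0.629) with 2DG. Rab27b was at 30.2 ± 6.12 CPM at 6 weeks and 15.3 ± 4.47 in untreated mice at 10 weeks, a log2 fold change of -0.97 (adjusted p = 0.131) with no overlap between the groups, and at 21.3 ± 7.61 with 2DG.

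Receptors for released nucleotides (P2rx1, P2ry1, P2ry12), the serotonin transporter that loads platelets with serotonin from plasma (Slc6a4) and the cation channel Trpc6 form the next group. Slc6a4 (ENSMUSG00000020838.12, chr11:76998603-77032340) had 35.1, 25.1, 15.3 and 20.01 CPM at 6 weeks, 7.51, 5.78, 11.9 and 10.1 in untreated mice at 10 weeks, and 17.9, 27.8, 21.9 and 13.3 with 2DG. All untreated 10-week libraries were below all libraries of the other 2 groups. With 2DG the mean rose from 8.84 ± 2.73 to 20.2 ± 6.16 CPM (SD, n = 4 each), a log2 fold change of 1.19 (SE 0.31, edgeR adjusted p = 0.0398). With age the value was -1.43 (SE 0.31, edgeR adjusted p = 0.0934), the largest in size of the 31 genes, and the 6-week mean was 23.9 ± 8.49 CPM. Over the 21 alternatives the adjusted p for 2DG ran from 0.00117 to 0.145 and the call was lost in 11, among them the fits without untreated replicate 5 (0.115) or 6 (0.0751), and without both 6 and 8 (0.128). Without untreated replicate 8 it was kept (0.0465). The age difference passed the edgeR test without untreated replicate 8 (adjusted p = 0.0314, in a fit that called 3.76% of all tested genes lower) but not without replicate 6 (0.136) or without both (0.0839).

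P2ry12 (ENSMUSG00000036353.13, chr3:59216272-59262871), the ADP receptor targeted by antiplatelet drugs, was the most abundant of this group by CPM. It had 25.8, 28.4, 23.3 and 29.6 CPM at 6 weeks, 15.9, 37.6, 32.7 and 24.4 in untreated mice at 10 weeks, and 32.9, 26.4, 27.0 and 23.1 with 2DG. The means of the 3 groups were within 1 CPM of each other, and the spread was widest in the untreated 10-week group. Its log2 fold change was 0.05 (SE 0.21, edgeR adjusted p = 0.934) with age and -0.02 (SE 0.21, adjusted p = 0.976) with 2DG. P2rx1, an ATP-gated channel, had 21.4 ± 5.00, 14.7 ± 3.04 and 22.1 ± 4.20 CPM. Its treated libraries (18.3 to 27.1 CPM) were all above the untreated 10-week libraries (11.1 to 17.7), with an edgeR adjusted p of 0.0869. P2ry1, the other ADP receptor, had 10.9 ± 1.64, 7.90 ± 2.11 and 11.3 ± 3.48 CPM. It shares 23.1% of its exon bases with an antisense gene, which these unstranded libraries cannot separate. That gene was given 27 counts over all libraries, against 2672 for P2ry1. Trpc6 had 6.52 ± 0.810, 4.22 ± 1.16 and 5.47 ± 2.13 CPM.

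None of the 3 enzymes of arachidonic acid metabolism passed the test in any comparison. Ptgs1 encodes cyclooxygenase-1, the target of aspirin, Tbxas1 thromboxane synthase, and Alox12 the platelet lipoxygenase. Ptgs1 (ENSMUSG00000047250.13, chr2:36230426-36252272) had 40.4, 54.2, 58.6 and 40.8 CPM at 6 weeks, 41.5, 75.6, 64.6 and 40.3 in untreated mice at 10 weeks, and 51.4, 54.7, 55.0 and 48.0 with 2DG. The groups overlapped throughout, and the log2 fold changes were 0.20 (SE 0.20, edgeR adjusted p = 0.658) with age and -0.09 (SE 0.20, adjusted p = 0.837) with 2DG. Tbxas1 had 27.0 ± 4.52, 27.9 ± 8.17 and 29.5 ± 4.76 CPM. Alox12 had 41.6 ± 7.63, 25.8 ± 4.27 and 37.1 ± 11.3 CPM, with no overlap between the untreated ages and a log2 fold change of -0.69 with age (adjusted p = 0.156).

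Tubb1 encodes the beta-tubulin of the marginal band that gives platelets their disc shape, Rgs18 a regulator of G protein signalling and Gng11 a G protein gamma subunit. Tubb1 (ENSMUSG00000016255.5, chr2:174450695-174457882) had 65.4, 61.0, 42.8 and 50.7 CPM at 6 weeks, 23.2, 23.8, 49.6 and 29.3 in untreated mice at 10 weeks, and 60.3, 70.9, 61.7 and 38.0 with 2DG. Untreated replicate 7 was within the 6-week range and treated replicate 12 was within the untreated 10-week range. The log2 fold change was -0.80 (SE 0.26, edgeR adjusted p = 0.173) with age and 0.87 (SE 0.26, adjusted p = 0.0688) with 2DG. Without untreated replicate 7 the edgeR adjusted p for 2DG was 0.00957, in a fit that called 3.7% of all tested genes higher. Across the 21 alternative settings the adjusted p of Tubb1 for 2DG ran from 0.00896 to 0.256. It was called in 3 of them and not called in 18. Rgs18 had 39.1 ± 5.53, 24.2 ± 6.10 and 33.9 ± 7.55 CPM, and Gng11 had 15.6 ± 3.37, 14.5 ± 1.18 and 19.0 ± 2.99 CPM.

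The 2 transcription factor genes had orders of their own. Nfe2 encodes the large subunit of NF-E2, which drives platelet formation and is also active in red cell precursors. Nfe2 (ENSMUSG00000058794.12, chr15:103248212-103258403) had 73.1, 64.9, 45.6 and 44.1 CPM at 6 weeks, 54.8, 41.7, 106 and 46.9 in untreated mice at 10 weeks, and 123, 163, 121 and 72.6 with 2DG. Treated libraries were high apart from replicate 12, and untreated replicate 7 was high in its group. Its log2 fold change was 0.13 (SE 0.33, edgeR adjusted p = 0.875) with age, 0.94 (SE 0.33, adjusted p = 0.113) with 2DG and 1.07 (SE 0.33, adjusted p = 0.144) for 2DG against 6 weeks. Among 15 further lineage regulators tested, Gata1, Gfi1b, Tal1 and Zfpm1 had a like order. Their values were 0.21 to 0.27 with age, 0.76 to 0.92 with 2DG and 0.97 to 1.17 against 6 weeks, none past the edgeR threshold. Over the 15, values were 10 positive and 5 negative with 2DG, and 8 positive and 7 negative against 6 weeks.

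The same libraries were high and low for red cell genes: the 11 tested of 12 erythroid markers summed to 3904 to 5822 CPM at 6 weeks, to 10618 in untreated replicate 7 against 1738 to 4776 in the others of its group, and to 6929 in treated replicate 12 against 11757 to 14796 in the other treated libraries. All 11 had a positive log2 fold change with 2DG (median 1.05), with 0 past the edgeR test (smallest adjusted p = 0.0759), and the part of red cell precursors in the Nfe2 values was not tested. This order of libraries was not particular to Nfe2. Within their groups, untreated replicate 7 was the highest for 22 of the 31 genes and treated replicate 12 the lowest for 28.

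Fli1, an ETS family factor of megakaryocytes that lymphoid and endothelial cells also express, was the most abundant of the factors. Fli1 (ENSMUSG00000016087.13, chr9:32422204-32542861) had 157, 179, 162 and 192 CPM at 6 weeks, 147, 143, 170.4 and 168 in untreated mice at 10 weeks, and 146, 130.2, 142 and 138 with 2DG. All treated libraries were below all 6-week libraries. This was the 1 gene of the 31 (3.23%) with that order, where 7.69% of all tested genes had it and 7.98% the opposite order. Its log2 fold change was -0.31 (SE 0.08, edgeR adjusted p = 0.0979) for 2DG against 6 weeks, -0.13 (adjusted p = 0.411) with age and -0.18 (adjusted p = 0.191) with 2DG at 10 weeks.

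Libraries of 1 group differed widely in these genes. Over the 31 genes the median ratio of the highest to the lowest library was 1.61 at 6 weeks, 1.72 in untreated mice at 10 weeks and 1.97 with 2DG, against 1.21, 1.36 and 1.19 for 13738 genes in the same range of CPM. The genes also tended to be high or low in the same libraries. At 6 weeks replicate 2 was the highest for 21 of the 31 genes and replicate 3 the lowest for 25, against 20.9% and 23.8% of all tested genes. In untreated mice at 10 weeks replicate 7 was the highest for 22 and replicate 5 the lowest for 24 (18.4% and 26.6% of all tested genes). With 2DG replicate 10 was the highest for 25 and replicate 12 the lowest for 28 (27.8% and 27.5%).

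Summed over the 31 genes, the 6-week libraries held 1904, 2003, 1369 and 1660 CPM, the untreated 10-week libraries 911, 1271, 1460 and 1125, and the treated libraries 1419, 1963, 1777 and 1167. Replicates 7 and 3 therefore bring the untreated groups into overlap, and replicates 9 and 12 do so for the treated and untreated groups at 10 weeks. The libraries were also set gene by gene against the whole range of another group, with the share over all tested genes beside each count. Treated replicates 10 and 11 were each above the untreated 10-week range for 25 of the 31 genes (23.8% and 20.6% of all tested genes), replicate 9 for 11 (18.2%) and replicate 12 for 2 (17.8%). Against the 6-week range, treated replicate 12 was below for 25 genes (22.8%) and replicate 9 for 14 (24.4%), while replicates 10 and 11 were below for 1 each (27.5% and 27.3%). These libraries were above the 6-week range for 0, 5, 10 and 7 genes in the same order. Untreated replicate 8, which over all genes was closest to the 6-week libraries, was below the 6-week range for 27 of the 31 genes (17.4%) and within it for 4. Replicate 5 was below that range for 28 genes (34.2%), replicate 6 for 21 (33%) and replicate 7 for 10 (30.6%). Replicate 6 was above it for 5 genes (32.5%) and replicate 7 for 4 (28.7%).

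**Figure D4:**
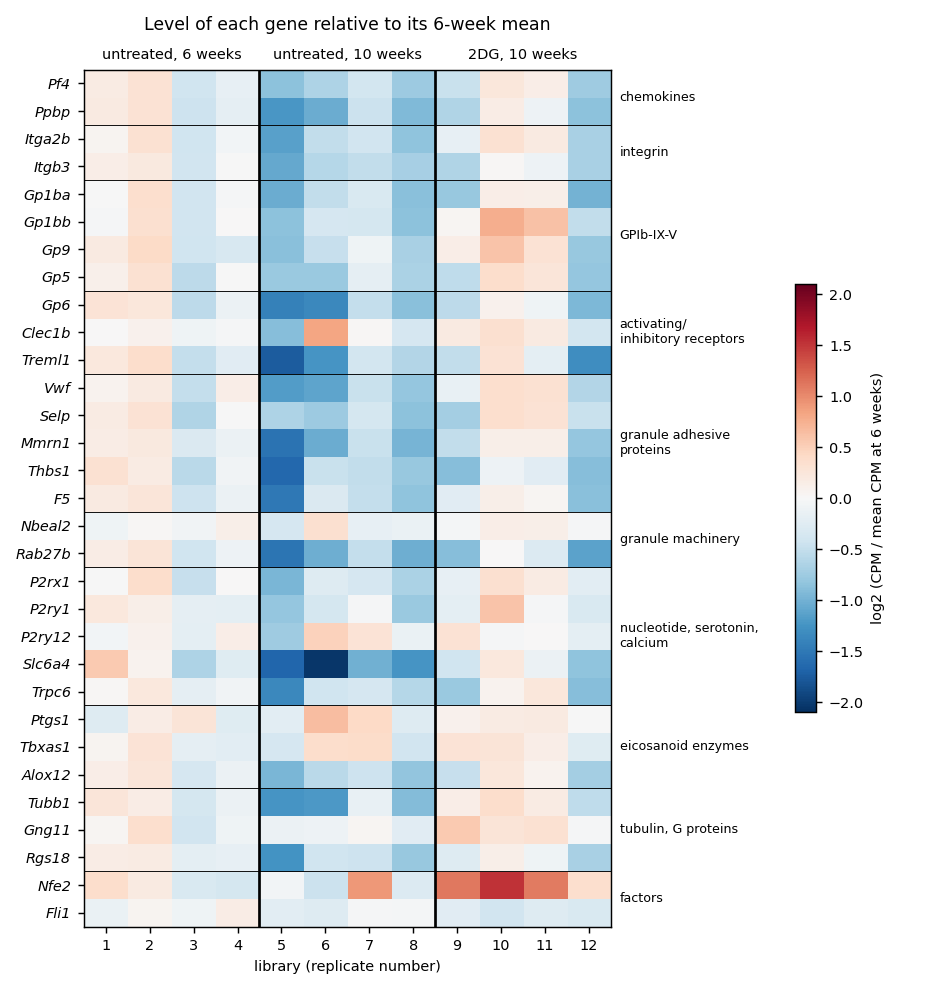
Level of the 31 genes in each of the 12 libraries, as the log2 ratio of CPM to the mean of the 6-week libraries, with genes grouped by role. Replicates 5, 6 and 8 and treated replicate 12 are low for most genes. Clec1b, Nbeal2, P2ry12, Ptgs1, Tbxas1, Gng11, Nfe2 and Fli1 had the smallest fitted changes with age, though some of them are also low in part of these libraries.

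The genes with the smallest fitted changes with age, picked out after their values were seen, were Clec1b, Nbeal2, P2ry12, Ptgs1, Tbxas1, Gng11, Nfe2 and Fli1. Each had a log2 fold change with age between -0.13 and 0.20, where the other members ran from -1.43 to -0.46. Several of them are also expressed in other blood cells or in the vessel wall, and the share of their counts that came from megakaryocytes or platelets was not tested.

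Lists of other megakaryocyte and platelet genes were read beside the 31. Of 16 further regulators of the lineage, 15 were tested and 1 rose with 2DG at 10 weeks, the transcription factor gene Lyl1 (63.5 ± 10.5 to 82.9 ± 3.68 CPM, log2 fold change 0.38, edgeR adjusted p = 0.0372). The gene of the growth factor thrombopoietin, Thpo, which is made mainly in the liver, was too low to be tested. Of 23 further signalling genes 1 rose with 2DG, the laminin-binding integrin gene Itga6 (98.5 ± 8.12 to 121 ± 7.15 CPM, 0.30, edgeR adjusted p = 0.0343). Of 20 further granule and cytoskeleton genes 1 rose and 1 fell with 2DG: Mylk, which encodes myosin light chain kinase, rose (0.46, edgeR adjusted p = 0.0275), and Srgn, which encodes the granule proteoglycan serglycin, fell by 0.37 (adjusted p = 0.0102). Over all tested genes 2.16% rose and 5.26% fell with 2DG. The calls in these lists are few and were not tested against that share. None of the tested genes of these 3 lists passed with age (smallest edgeR adjusted p = 0.0818) or for 2DG against 6 weeks (0.0854). The median log2 fold changes of the 3 lists with 2DG were 0.14, 0.09 and 0.02, and with age 0.02, -0.10 and -0.08. Many of these genes are also expressed in lymphocytes, myeloid cells or smooth muscle.

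Markers of other cells moved in part with the groups. The 8 neutrophil markers summed to 886 to 2607 CPM at 6 weeks, 459 to 3434 in untreated mice at 10 weeks and 767 to 2007 with 2DG, and none passed the test in any comparison (1 positive and 7 negative log2 fold changes with 2DG). The 8 stem and progenitor markers summed to 130.4 to 149.7, 131 to 159 and 121 to 148 CPM. Of these Procr fell by 0.59 (log2, edgeR adjusted p = 0.0275) with 2DG, in a list with 3 positive and 5 negative values. Among 8 macrophage and monocyte markers, 2 positive and 6 negative, C1qa and Ly6c2 fell by 0.88 and 1.21 with 2DG (adjusted p = 0.0374 and 0.0419). Among 6 stromal markers, 5 positive and 1 negative, Tlx1 and Nkx2-5 rose, by 0.65 and 0.76 (adjusted p = 0.0240 and 0.0325). These marker calls stand beside 2.16% of all tested genes that rose and 5.26% that fell with 2DG. No mast cell and basophil, lymphatic endothelial, or B and T cell marker passed in any comparison. With 2DG these lists had 0 positive and 7 negative, 2 and 2, and 5 and 2 values, in the same order. The 4 tested lymphatic endothelial markers ran from -1.01 to 0.44 with age and from -0.35 to 1.01 with 2DG. The part of these other cells in the results above was not tested.

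**Figure D5:**
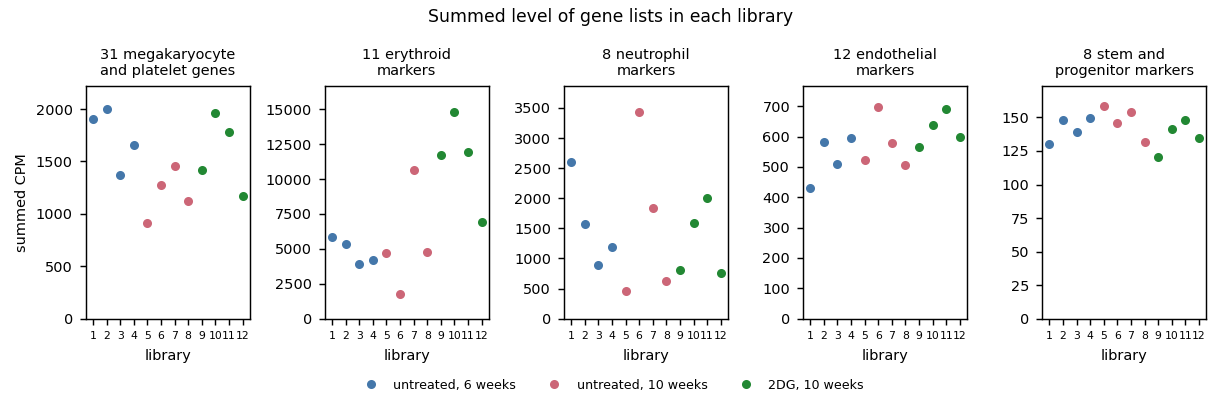
Summed CPM of the 31 genes and of 4 marker lists in each library (points, 6 weeks in blue, untreated 10 weeks in red, 2DG in green). The 31 genes range from 911 to 2003 CPM and the erythroid markers from 1738 to 14796, and the erythroid sum is highest in treated replicate 10.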

How the data were processed

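RNA of 12 spleen samples was sequenced, and the authors deposited its counts per gene as whole numbers in 1 table. Libraries were poly(A)-selected with the TruSeq v2 kit, per the labels' protocols. Bowtie2 2.2.0, RSEM 1.2.12 and GRCm38 are named without roles, per the submitters' processing notes. The sources used here do not state how the values became whole or how shared reads were split.

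Columns were matched through sample descriptions and groups through titles. Symbols were found for 53620 of 53715 identifiers in GENCODE M21, and 95 without one took up to 0.0158% of the counts. Counts of library pairs within a group differed beyond sampling noise (chi-square per gene 10.5 to 85.2). Tests used edgeR 4.0.16 (R 4.3.3) with TMM, filterByExpr and robust quasi-likelihood fits over all 12 libraries, and Benjamini-Hochberg adjustment over 18542 genes at 0.05. The fit was tested on simulated data, in which genes varied independently and with the same spread in each group. In the real data genes moved together by library and groups differed in spread. That test therefore does not bear on how stable the calls are. SE is the size of the log2 fold change over the square root of F. CPM per kb uses the union of exons. The members and lists were chosen with earlier results of these data known. Full values are given for genes past the threshold and for the gene with the highest mean CPM in each role. From the other lists, genes past the threshold are named, at most 4 per pathway list and 3 per marker list and comparison. Other genes named were chosen after their values were seen. Alternatives were DESeq2 1.42.0, voom (limma 3.58.1), other size factors and filters, fits of the compared groups alone, removal of immunoglobulin genes, and each library left out.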

Additional observations from a re-analysis of the deposited data

Results flagged for a closer look

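Of 93 groups of 4 libraries (31 genes in 3 groups), 1 held a library far from the rest. Gp5 in untreated 10-week replicate 7 was at 14.5 CPM, while the nearest other library was at 10.4 and the lowest at 9.60, so that the gap was 0.836 of the range, above Dixon's 95% critical value for 4 samples. Chance marks about 1 group in 20, which would be 4.65 of 93.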

How the results depend on the processing

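No paired analysis was possible because each replicate number is used once over the 3 groups. Depth did not keep any of the 31 genes out of the tests, and their median SE was 0.25 on the log2 scale in each comparison, against 0.14 over all tested genes. Medians of the 31 genes kept their direction in the first 2 comparisons: leaving out 1 library gave -0.77 to -0.53 with age and 0.35 to 0.66 with 2DG, and -0.28 to 0.06 for 2DG against 6 weeks. Genes called with age numbered 690 by DESeq2, 102 without a filter, 0 with the compared groups alone and 0 to 1563 with 1 library left out, against 1. With 2DG they numbered 2304 by DESeq2, 581 with the compared groups alone and 514 to 2209 with 1 library left out. For 2DG against 6 weeks they numbered 895 by DESeq2, 98 without a filter, 1367 with the compared groups alone, 1644 by voom and 1 to 354 with 1 library left out. Of the 31 genes, DESeq2 called 10 with age, 8 with 2DG and 2 in the third comparison. It called 1.89%, 6.29% and 2.45% of all genes with any count in the same order. With age, leaving out 1 library called 0 to 1, the 1 being Slc6a4 without untreated replicate 8 (8.33% of all tested genes called). With 2DG, 0 were called without a filter (3.13% of all tested genes), with the compared groups alone (3.21%) and by voom (7.05%). With 1 library left out 0 to 7 were called: 7 without treated replicate 12 (6.59%) and 5 without untreated replicate 7 (8.43%). None were called without untreated replicates 5 or 6, treated replicates 9, 10 or 11, or 6-week replicates 2 or 4 (2.74% to 9.71%). In the third comparison 1 was called with the compared groups alone (7.54% of all tested genes) and 2 by voom (8.87%). Leaving out both untreated replicates 6 and 8, chosen after seeing the data, gave 2303, 3193 and 758 genes (12%, 16.7% and 3.96% of those tested) and 0, 1 (Nbeal2) and 1 (Fli1) of the 31, so that Vwf and Slc6a4 lost their calls with 2DG. The cause of these shifts was not tested.

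Some log2 fold changes changed sign, each from a value with an adjusted p above 0.05. With age, Clec1b was -0.16 by voom and -0.35 without replicates 6 and 8, and P2ry12 was -0.13 without these. With 2DG, P2ry12 was 0.0052 with upper-quartile factors, 0.0237 by voom and 0.16 without replicates 6 and 8. Leaving out 1 library with age gave -0.35 to 0.25 for Clec1b, -0.22 to 0.038 for Gng11, -0.13 to 0.24 for P2ry12, -0.084 to 0.17 for Tbxas1, -0.21 to 0.029 for Nbeal2 and -0.25 to 0.29 for Nfe2. With 2DG it gave -0.14 to 0.46 for Clec1b, -0.051 to 0.20 for Tbxas1, -0.20 to 0.16 for P2ry12 and -0.22 to 0.094 for Ptgs1. For 2DG against 6 weeks it gave -0.22 to 0.11 for Selp, -0.43 to 0.0063 for Slc6a4, -0.18 to 0.12 for Itga2b, -0.29 to 0.079 for Gp5, -0.10 to 0.19 for Vwf, -0.085 to 0.19 for P2rx1, -0.18 to 0.16 for P2ry1, -0.068 to 0.11 for P2ry12, -0.044 to 0.23 for Tubb1, -0.045 to 0.36 for Gp9 and -0.31 to 0.0037 for Pf4.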
